A study of Danio rerio with 2 samples.

Results

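Zebrafish respiratory chain genes were examined as a group in cells sorted from embryonic tails, with the genes carried by the mitochondrial genome kept apart from those carried in the nucleus. Members were all rows of the plate tables whose Ensembl zebrafish gene name, ignoring case, begins with mt-, nduf, uqcr, atp5, or cox followed by 4 to 8. This rule uses names only and found 99 of 22342 genes, of which 13 are mt- genes and 86 are nuclear. The nuclear members comprise 38 genes named as complex I subunits, 7 complex I assembly factors, 7 complex III genes, 15 complex IV genes and 19 complex V genes. A further 13 names in the name table that follow the rule have no row in the plate tables and are not analysed here. Names are written in the zebrafish style, although the table gives some of them in human capitals, and genes that share a name carry their Ensembl identifier.

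The respiratory chain moves electrons from NADH and succinate to oxygen through complexes I to IV and pumps protons across the inner mitochondrial membrane, and complex V, the ATP synthase, makes ATP from that gradient. Most subunits are encoded in the nucleus and imported. The mt- genes encode a core of hydrophobic subunits of complexes I, III, IV and V, so both sets are needed for working complexes. Their transcripts are made inside the organelle, where most of them are polyadenylated. Neutrophils are known for relying largely on glycolysis, whereas macrophages and striated muscle use oxidative phosphorylation to degrees that vary with their state or fiber type.

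The cells carried mpeg1:EGFP, a macrophage reporter, and runx1+23:mCherry, a reporter driven by an enhancer active in hematopoietic stem and progenitor cells (HSPCs), and came from tails of embryos at 3 days post-fertilization. Single live cells were sorted on 2 plates of 384 wells. The first 192 wells of a plate held EGFP+mCherry+ cells, which include macrophages that may have taken up HSPC material, and the other 192 held EGFP+mCherry- cells. Both gates thus share stage, tissue and transgenes and differ in mCherry, and each gate filled its own side of a plate.

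RNA was counted by SORT-seq, which captures polyadenylated RNA in each well and tags every molecule with a unique molecular identifier (UMI). Wells under 500 UMIs or 200 genes were set aside, which left 143 mCherry+ and 151 mCherry- wells on plate 1 and 123 mCherry+ and 117 mCherry- wells on plate 2. The 534 kept wells held 6186716 UMIs, with a median of 8862 and a range of 507 to 214558 per well. Wells were grouped by clustering without the respiratory chain genes, and clusters were named from marker genes. This gave 120 neutrophil-like, 203 macrophage-like, 27 progenitor-like, 21 mesenchyme-like, 13 muscle-like and 8 erythroid-like wells, while 3 clusters of 78, 51 and 13 wells stayed unnamed. The labels call all cells macrophages, yet markers of macrophages defined only 203 of the 534 wells. Of the unnamed clusters, the ones with 51 and 13 wells were shallow, with median UMIs of 1030 and 1362. The mCherry+ gate held 24 macrophage-like and 15 neutrophil-like wells on plate 1 and 75 and 3 on plate 2. The mCherry- gate held 51 macrophage-like and 62 neutrophil-like wells on plate 1, and 53 macrophage-like and 40 neutrophil-like wells on plate 2. As a share is relative to all RNA captured from a well, fewer mitochondrial transcripts and more of other transcripts cannot be told apart.

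The mt- genes took 4.63% of the UMIs of kept wells and the nuclear members took 1.64%. A row without a name, ENSDARG00000080337, took 5.59%, is not a member, and stays in the total behind every share. It took 9.77 and 6.3% in macrophage-like and 6.51 and 4.74% in neutrophil-like wells of plates 1 and 2. Complex IV genes led the mitochondrial set. mt-co2, which encodes the subunit that accepts electrons from cytochrome c, supplied 24.2% of all mt- UMIs, mt-co1, the catalytic subunit, 18.7%, and mt-co3 13.0%. Together the complex IV genes made up 55.8% of mt- UMIs, against 19.3% for the 7 genes of complex I, 13.8% for the complex V genes mt-atp6 and mt-atp8, and 11.1% for mt-cyb, the cytochrome b of complex III. These are shares of counted molecules and were not divided by gene length. The complex I genes ranged widely. mt-nd4 supplied 7.70% and mt-nd2 5.25% of mt- UMIs, mt-nd1 3.81%, mt-nd3 1.65% and mt-nd5 0.785%. The lowest were mt-nd4l at 0.0796% and mt-nd6 at 0.0356%, with mt-atp8 at 0.580%. mt-co2 was seen in 533 of 534 wells and mt-nd6 in 78.

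Among the nuclear members, the ATP synthase dominated. The genes of the large F1 subunits, atp5f1b and atp5f1a, supplied 6.87% and 6.45% of nuclear member UMIs, and atp5mc3b, one of several genes for the proton-carrying c subunit, 5.41%. Complex IV followed with cox4i1 (4.11%), cox5b (ENSDARG00000015978, 3.46%), cox8a (3.21%), cox6a1 (ENSDARG00000022438, 3.04%), cox6b2 (2.99%) and cox6c (2.50%). The list of the 12 most abundant was completed by the synthase genes atp5f1c (3.39%), atp5mc1 (3.28%) and atp5po (2.55%). These 12 genes held 47.3% of nuclear member UMIs, and none of them belongs to complex I or III. The 28 members with at least 1000 UMIs held 73.1%, and 11 members had under 50 UMIs and held 0.261%. The scarce members were the assembly factors ndufaf4, ndufaf6, ndufaf7 and ndufaf8, the subunit gene ndufv3, and the paralogs ndufa4l2b, ndufa9b, cox4i2, cox4i1l, cox5aa and cox5b (ENSDARG00000068738). cox4i2, known in mammals as a hypoxia-induced form of subunit IV, reached 24 UMIs in 16 wells, against 4168 UMIs in 455 wells for cox4i1. At this depth, single wells give little on most complex I genes: ndufb9, the most abundant of them, was detected in 61.2% of wells.

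The mt- share was lower in neutrophil-like than in macrophage-like wells on both plates. In mCherry- wells the median mt- share was 3.13% in the 62 neutrophil-like wells (range 0.791 to 6.31%), against 5.33% in the 51 macrophage-like wells of plate 1 (1.68 to 9.18%). On plate 2 it was 3.44% in 40 neutrophil-like wells (1.18 to 6.13%), against 5.98% in 53 macrophage-like wells (1.78 to 8.96%). The ranges over wells overlapped, but both neutrophil-like medians lay under both macrophage-like medians. The ratio of medians averaged 0.582 ± 0.0081 (SD, n = 2 plates). With 2 plates a two-sided exact permutation test within plates cannot give a p under 0.5, so the shares carry no test. Depth was similar, with median UMIs of 8371 and 8583 in neutrophil-like wells and 9890 and 8517 in macrophage-like wells of plates 1 and 2.

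The nuclear share differed in the same direction but by less. In mCherry- wells its median was 0.830% in neutrophil-like wells, against 1.03% in macrophage-like wells of plate 1, and 0.837% in neutrophil-like wells, against 1.26% in macrophage-like wells of plate 2. The ratio of well medians averaged 0.735 ± 0.097 (SD, n = 2 plates), with 0.804 on plate 1 and 0.667 on plate 2. The plates therefore differed more in this ratio than in the mt- ratio.

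**Figure D1:**
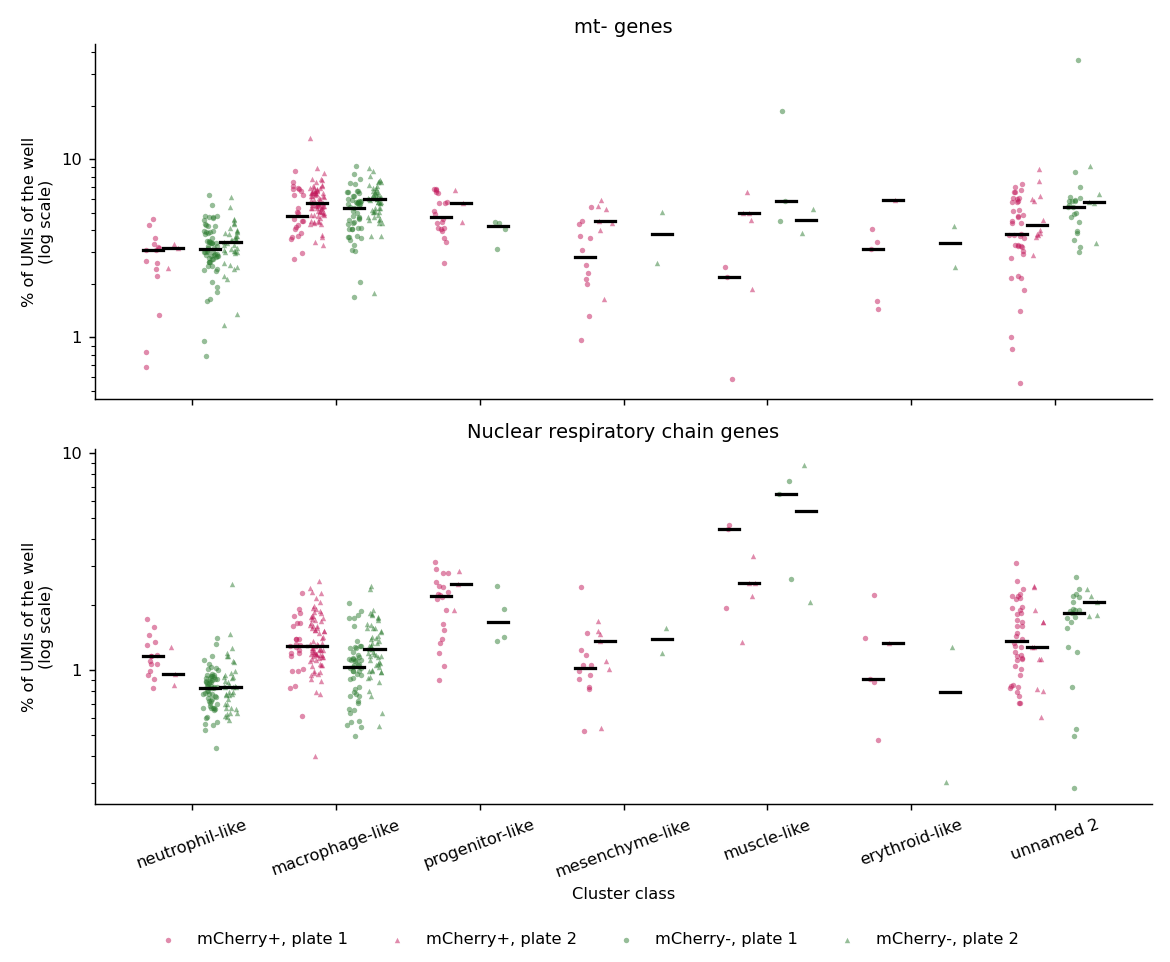
Share of each well's UMIs in the mt- genes (top) and in the nuclear respiratory chain genes (bottom), in percent on log axes, by cluster class. Each point is a kept well, magenta for mCherry+ and green for mCherry-, circles for plate 1 and triangles for plate 2, and black bars are medians. The neutrophil-like mt- medians lie near 3% and the macrophage-like ones near 5 to 6%, while progenitor-like and muscle-like wells stand higher in the nuclear panel.

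Progenitor-like wells combined a macrophage-like mt- share with a high nuclear share. Their median mt- share was 4.46% on plate 1 (24 wells) and 5.69% on plate 2 (3 wells), and their median nuclear share was 2.15% and 2.50%. The nuclear medians were 0.873% and 0.840% in neutrophil-like wells and 1.11% and 1.28% in macrophage-like wells of plates 1 and 2 with both gates counted. Expressed as mt- UMIs per nuclear member UMI, the median well stood at 2.33 and 2.70 in the progenitor-like class, at 3.57 and 4.01 in the neutrophil-like class and at 4.36 and 4.50 in the macrophage-like class. Proliferation markers were also raised in the progenitor-like cluster, 7 of 19 of them, and their part in the share was not tested. The unnamed cluster of 78 wells had nuclear medians of 1.59% and 1.66%. Mesenchyme-like wells had mt- medians of 2.83% and 4.50% and nuclear medians of 1.02% and 1.35%, and the 8 erythroid-like wells 3.15% and 4.24% and 0.911% and 1.28%.

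Muscle-like wells had the highest nuclear shares and the lowest ratio of mt- to nuclear UMIs. By well medians their nuclear share was 4.57% on plate 1 and 2.52% on plate 2, against 2.15% and 2.50% in progenitor-like wells. On plate 2 these medians were thus close. Over all muscle-like wells the nuclear members took 4.09% of the summed UMIs on plate 1 (6 wells) and 2.82% on plate 2 (7 wells). The mt- shares of the same sums were 3.13% and 4.92%. Among the wells of the mCherry+ gate, those of plate 1 held 4.68, 1.94 and 4.47% nuclear and 2.17, 2.48 and 0.583% mt- UMIs, at 76220 to 122200 UMIs per well. The well with 0.583% mt- UMIs had 0.13 mt- UMIs per nuclear UMI. On plate 2 the mCherry+ wells held 1.35 to 3.35% nuclear and 1.87 to 6.59% mt- UMIs. The mCherry- wells held fewer UMIs and included the 3 highest nuclear shares, 6.49% and 7.41% on plate 1 and 8.76% on plate 2, in wells of 23180 to 29920 UMIs. These 3 wells also carried 41860, 19170 and 45710 CPM (UMIs per 1000000 UMIs) of myl13, a myosin light chain gene, whereas no mCherry+ muscle-like well with over 10000 UMIs exceeded 36.5. The myl13 gene was singled out after its values were seen. The remaining muscle-like wells had 964 UMIs in the mCherry+ gate and 531 and 2097 in the mCherry- gate.

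Although the nuclear share varied among classes, its division among complexes varied little. Complex V genes supplied 44.7 and 45.9% of nuclear member UMIs in neutrophil-like wells of plates 1 and 2, 48.0 and 47.7% in macrophage-like wells, 49.6% on both plates in progenitor-like wells and 46.5 and 48.0% in muscle-like wells. Complex I supplied 22.0 and 22.3% in neutrophil-like, 20.6 and 22.4% in macrophage-like, 22.0 and 22.4% in progenitor-like and 25.8 and 25.1% in muscle-like wells. Complex IV supplied 26.9 and 25.5% in neutrophil-like, 24.3 and 23.3% in macrophage-like, 21.1% on both plates in progenitor-like and 20.4 and 19.5% in muscle-like wells. Complex III stayed between 5.61 and 7.24% and the assembly factors between 0.267 and 0.740% in these 4 classes.

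**Figure D2:**
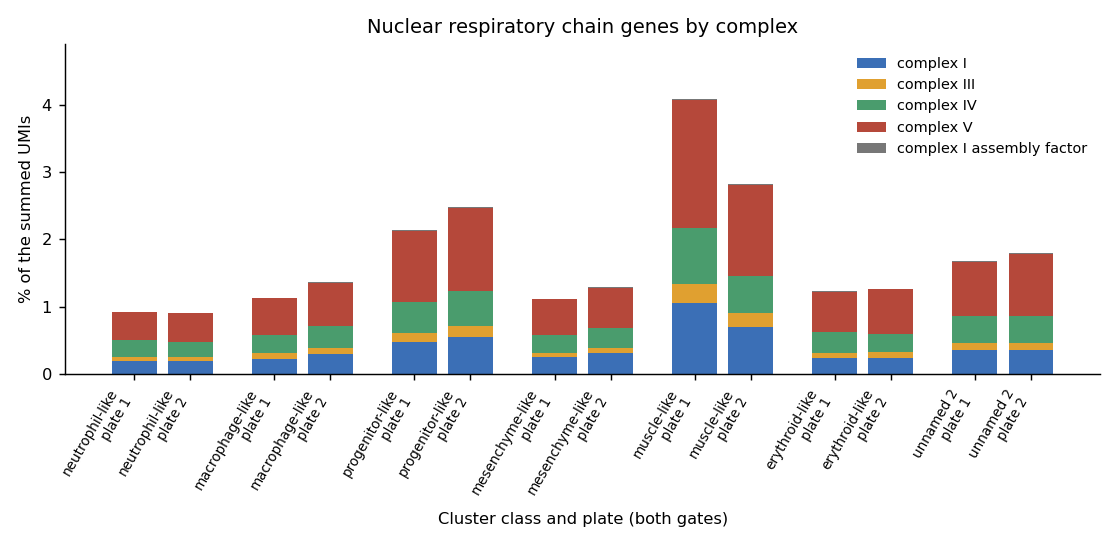
Percent of the summed UMIs in nuclear respiratory chain genes, stacked by complex, for each cluster class and plate with both gates pooled. The total is 0.923 and 0.909% in neutrophil-like wells, 1.13 and 1.36% in macrophage-like wells, and reaches 4.09% in muscle-like wells of plate 1, with complex V the widest band in every bar.

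The make-up of the mt- transcripts also differed among classes. mt-atp6, which encodes the proton channel subunit of the synthase, supplied 19.2 and 20.3% of mt- UMIs in muscle-like wells and 15.5 and 16.6% in progenitor-like wells of plates 1 and 2, against 9.92 and 11.7% in neutrophil-like and 9.25 and 11.5% in macrophage-like wells. mt-co1 showed the reverse order, with 15.0% on both plates in muscle-like wells and 20.2 and 19.9% in macrophage-like wells. mt-cyb differed least, from 9.75 to 11.9% across the neutrophil-like, macrophage-like, progenitor-like, muscle-like and largest unnamed classes. mt-nd1 supplied 2.56 and 2.66% in neutrophil-like and 3.31 and 3.76% in macrophage-like wells.

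For tests of single genes, the UMIs of all wells in a group were added up within a plate, giving 4 sums per comparison, and fitted with edgeR's quasi-likelihood test with the plate as a block and Benjamini-Hochberg adjustment over all genes tested (threshold 0.05). The block removes differences in level between plates. A p-value thus sets the difference between groups against its variation from plate to plate, counting error included. Each gene had 1 residual degree of freedom for this variation. Most of its estimate came from other genes, which counted as 8.28 to 8.68 degrees of freedom. The labels do not say whether the plates came from separate clutches, so whether this variation includes that between clutches is not known. The first test compared neutrophil-like with macrophage-like wells of the mCherry- gate. Clusters were formed without the respiratory chain genes, but the genes that define them are among those tested, and 15.0% of all 4974 tested genes were called higher and 15.6% lower in neutrophil-like wells.

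Against this background, 11 of the 13 mt- genes were called lower in neutrophil-like wells and none higher, with a median log2 fold change of -0.72 beside 0.00 for all genes. The levels that follow are in CPM, in the summed wells of plates 1 and 2. mt-co2 was at 8930 and 8330 in neutrophil-like wells, against 13300 and 13900 in macrophage-like wells, a log2 fold change of -0.53 (SE 0.15, adjusted p = 0.027). mt-co1 was at 5900 and 6020, against 10100 and 11300 (-0.72, SE 0.16, adjusted p = 0.0078). mt-co3 was at 4620 and 4380, against 7110 and 7330 (-0.55, SE 0.16, adjusted p = 0.030). The sums of the 2 classes did not overlap for any of these complex IV genes, but how often this held over all genes was not counted. mt-co2 and mt-co3 had the smallest differences of the 11 called genes.

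Of the called mitochondrial complex I genes, mt-nd1 was at 754 and 894 in neutrophil-like sums, against 1710 and 2390 in macrophage-like sums (-1.17, SE 0.20, adjusted p = 0.0018). mt-nd2 was at 1290 and 1550, against 2660 and 3380 (-0.95, SE 0.18, adjusted p = 0.0040). mt-nd5 stood at 277 and 207, against 466 and 459 (-0.81, SE 0.24, adjusted p = 0.030). For mt-nd3 (-0.71, SE 0.21) and mt-nd4 (-0.70, SE 0.18) the adjusted p-values were 0.030 and 0.014. mt-cyb of complex III had 3580 and 3680, against 6010 and 6940 (-0.70, SE 0.17, adjusted p = 0.011). In the synthase, mt-atp6 had 2780 and 3810, against 4670 and 6820 (-0.66, SE 0.17, adjusted p = 0.015), and mt-atp8, an accessory subunit gene that overlaps mt-atp6 in vertebrate mitochondrial genomes, 78.8 and 91.2, against 217 and 265 (-1.37, SE 0.29, adjusted p = 0.0063). Reads from mt-atp8 and mt-atp6 may have been split between them in counting. The 2 genes not called were also the scarcest. mt-nd4l had 13 and 6 UMIs in neutrophil-like sums and 32 and 17 in macrophage-like sums (-0.99, SE 0.45, adjusted p = 0.13). mt-nd6, the member transcribed from the opposite strand of the mitochondrial genome, had 6 and 0, against 11 and 11 UMIs, a ratio of the shares of UMIs of 0.336 pooled over plates with an exact 95% counting interval of 0.111 to 0.855, and edgeR gave an adjusted p of 0.21.

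**Figure D3:**
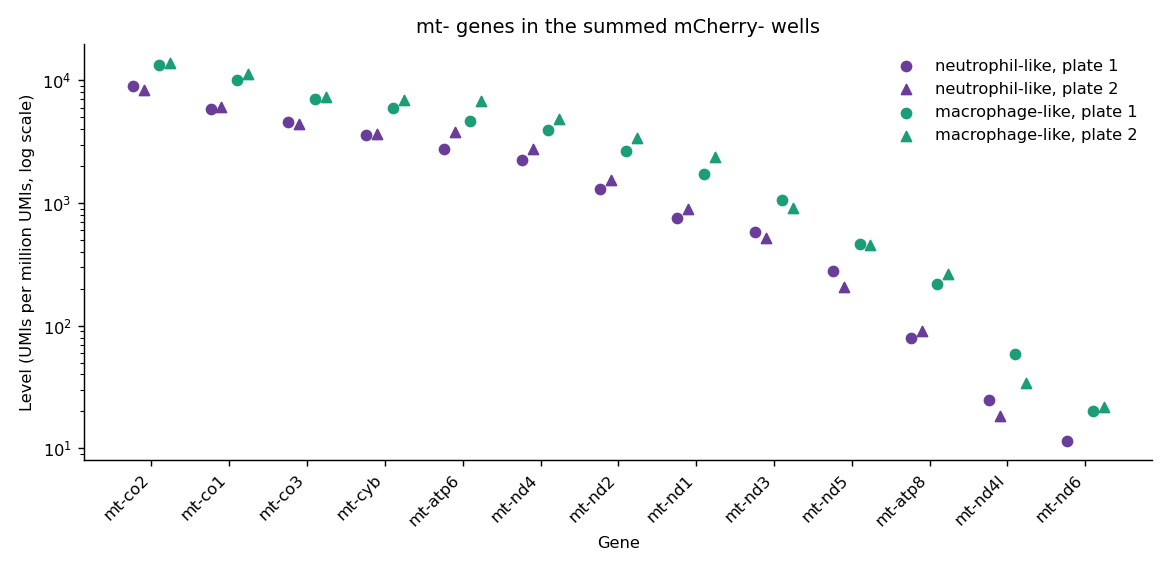
Level of each mt- gene in CPM (log axis) in the summed mCherry- wells, purple for neutrophil-like and green for macrophage-like, circles for plate 1 and triangles for plate 2. Every neutrophil-like point lies below both macrophage-like points of its gene. How often the sums of other genes separate in this way was not counted. mt-nd6 had no UMI in the neutrophil-like sum of plate 2, and that point is not drawn.

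Thinning wells to 2000 UMIs kept 59 and 37 neutrophil-like and 51 and 52 macrophage-like wells. There 6 of 11 tested mt- genes were called, beside 46.9% of all 1515 tested genes, counting both directions. The median of the mt- genes was -0.50, beside 0.02 for all genes. DESeq2 called 6 of 13 mt- genes, and its share over all genes is not given here. The genes mt-co1, mt-cyb, mt-nd1 and mt-nd2 were called under all 13 alternatives that tested them. The other calls were less stable. Of 13 alternatives, 12 kept the call for mt-atp6 and for mt-atp8, 11 for mt-nd4, 10 for mt-nd3 and for mt-nd5, and 9 for mt-co2 and for mt-co3.

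Of 71 nuclear members tested, 3 were called higher and 4 lower in neutrophil-like wells, beside the 15.0% and 15.6% of all genes, with a median log2 fold change of -0.39 and 58 of 71 on the lower side. Complex I had 0 of 35 called (lowest adjusted p = 0.064; 4 at an unadjusted p under 0.05 by edgeR) and a median of -0.27, with 28 on the lower side. Complex III had all 6 tested genes on the lower side (median -0.59), and complex V 17 of 19 (median -0.45).

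The ATP synthase inhibitory factor, a small protein that blocks ATP hydrolysis by complex V, is encoded by 2 paralogs in zebrafish, and they went in opposite directions. atp5if1b was at 171 and 176 CPM in neutrophil-like sums, against 62.6 and 75.6 in macrophage-like sums (log2 fold change 1.46, SE 0.31, adjusted p = 0.0060). atp5if1a was at 57.7 and 57.8, against 116 and 163 (-1.11, SE 0.33, adjusted p = 0.028). The groups did not overlap for either gene, and the share of all genes without overlap was not counted. Counted over both gates, atp5if1b supplied 73.1% of the UMIs of the pair in neutrophil-like wells of plate 1 (exact 95% interval 65.8 to 79.6%) and 75.9% on plate 2 (65.5 to 84.4%), against 38.5% (30.8 to 46.6%) and 38.3% (33.1 to 43.7%) in macrophage-like wells. The intervals cover counting error only. Progenitor-like wells had 48.8 and 42.3% and muscle-like wells 60.6 and 55.7%.

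A second pair belonged to cox6a1, a peripheral complex IV subunit. The scarce copy, ENSDARG00000054588, had 27 and 17 UMIs in neutrophil-like sums, in 19 of 62 and 10 of 40 wells, against 3 and 0 UMIs in macrophage-like sums, in 2 of 51 and 0 of 53 wells. Pooled over plates this is 44 against 3 UMIs, a ratio of the shares of UMIs of 18.1 with an exact 95% counting interval of 5.79 to 91.0, and edgeR gave an adjusted p of 0.0029. The main copy, ENSDARG00000022438, stood at 255 and 266 CPM in neutrophil-like wells, against 336 and 422 in macrophage-like wells with both gates counted. Reads that fit both copies could have been assigned to either. In macrophage-like wells of the mCherry+ gate the scarce copy had 10 and 8 UMIs, against the 3 and 0 UMIs of the mCherry- gate, and it did not pass the filter on low counts in that comparison.

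**Figure D4:**
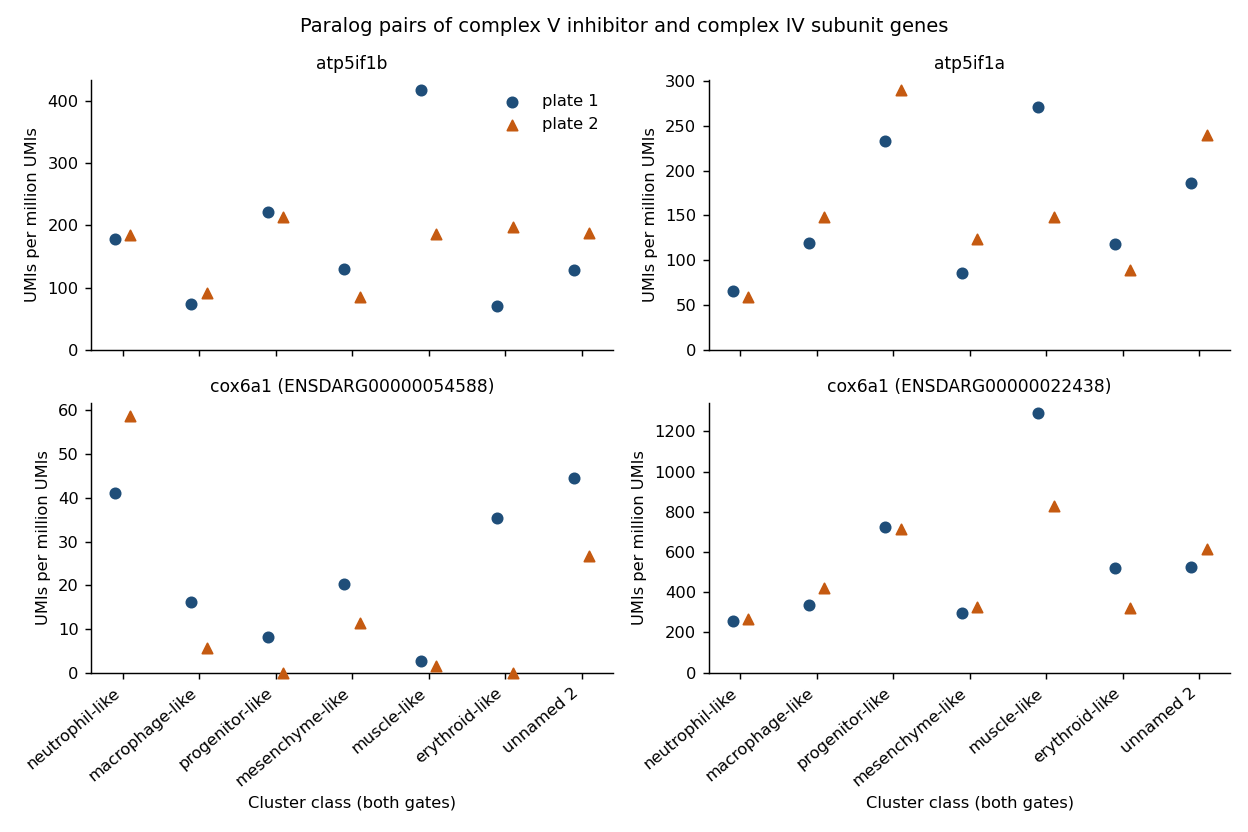
CPM of the 2 ATP synthase inhibitory factor genes (top) and the 2 genes named cox6a1 (bottom) by cluster class, circles for plate 1 and triangles for plate 2, both gates pooled. atp5if1b is at 178 and 185 in neutrophil-like wells, above the macrophage-like points at 74.3 and 92.0. It is higher still in progenitor-like wells (222 and 213) and in muscle-like wells (417 and 186). atp5if1a is lower in neutrophil-like wells than in any other class shown. The scales of the panels differ.

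ndufaf1, a chaperone for early steps of complex I assembly, had 14 and 18 UMIs in neutrophil-like sums, against 2 and 3 in macrophage-like sums, a pooled ratio of 7.89 with an exact 95% counting interval of 3.05 to 25.9 (edgeR adjusted p = 0.0056). It was detected in 19.4 and 32.5% of neutrophil-like wells, against 3.92 and 3.77% of macrophage-like wells. With wells thinned to 2000 UMIs it was detected in 1 of 59 and 2 of 37 neutrophil-like wells, against 0 of 51 and 0 of 52 macrophage-like wells (exact 95% upper limits 6.98 and 6.85%), and cox6a1 (ENSDARG00000054588) in 4 and 1 neutrophil-like wells, against 1 and 0 macrophage-like wells, so these differences were not detectable at that depth. Of the genes on the lower side, cox7a2l, known in mammals for promoting supercomplexes of III and IV, was at 82.7 and 91.2 CPM in neutrophil-like sums, against 195 and 203 in macrophage-like sums (-1.07, SE 0.30, adjusted p = 0.023). uqcrh, the hinge subunit of complex III, was at 108 and 100, against 213 and 263 (-1.05, SE 0.28, adjusted p = 0.020). The c subunit gene atp5mc3b was at 417 and 383, against 633 and 766 (-0.67, SE 0.23, adjusted p = 0.049). DESeq2 called only cox6a1 (ENSDARG00000054588) of the 7. With wells thinned to 2000 UMIs ndufaf1 and cox6a1 (ENSDARG00000054588) could not be tested, atp5if1b was called, and atp5if1a, cox7a2l, uqcrh and atp5mc3b were not, with a uqcrh difference of -0.06. The 22 muscle markers took 0.289 and 0.967% of UMIs in neutrophil-like sums and 0.288 and 0.901% in macrophage-like sums. These markers are a sign of RNA from other cells, and their shares were close within each plate. Other lists were not as close. Thrombocyte markers took 0.0342 and 0.0298%, against 0.00975 and 0.00656%, and epithelium markers 0.12 and 0.129%, against 0.0734 and 0.0637%. Endothelium markers were lower, at 0.00115 and 0.00122%, against 0.00699 and 0.00617%. The part of such RNA in the results was not tested.

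Genes of related pathways were compared in the same fit, where 15.0% of all tested genes were called higher and 15.6% lower. The counts per list were not tested against these shares. Of the carriers of electrons, cytochrome c gene cycsb was lower in neutrophil-like wells (154 and 186 CPM, against 366 and 426, log2 fold change -1.10, SE 0.26, adjusted p = 0.0098), the only called gene of 2 tested in its list. Of 15 tested genes of the TCA cycle and pyruvate dehydrogenase, 1 was called higher (pdhb, 1.19, SE 0.31) and 1 lower (suclg1 of succinyl-CoA ligase, -1.69, SE 0.29), with a list median of -0.53. Complex II, the succinate dehydrogenase, had 0 of 5 called by edgeR (0 at an unadjusted p under 0.05), and the mitochondrial ribosome 0 of 18 (6 at an unadjusted p under 0.05) with a median of -0.81. The outer membrane porin vdac3 (-2.14, SE 0.44) was the only called gene of 7 carriers and porins. Among assembly genes outside the naming rule, higd1a was called lower (-1.32, SE 0.27), 1 of 7. Of the glycolysis list, 12 genes were matched by name and 7 were tested, of which 3 were called higher and none lower, with a median of 0.61. The list's other names matched no row, and those genes may be present under another name. gapdh was at 1990 and 1680 CPM in neutrophil-like sums, against 173 and 223 in macrophage-like sums (3.35, SE 0.24, adjusted p = 1.3e-05), and eno3, which is also on the muscle list, and the glucose transporter gene slc2a3b differed by 1.00 (SE 0.24) and 1.19 (SE 0.25). Of 13 antioxidant genes, gsr and prdx5 were higher and prdx1 lower. tomm34 was the only called gene of 10 for mitochondrial import, on the higher side.

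The study's own question concerned the gates, and for these the respiratory chain genes gave no call. Over all kept wells, 2.42% of 9904 tested genes were called higher and 2.32% lower in mCherry+ wells, and 0 of 13 mt- and 0 of 79 tested nuclear members were called by edgeR. By edgeR 1 member was at an unadjusted p under 0.05, and by DESeq2 0 members were called or at such a p. The median mt- share of mCherry+ wells was 3.69% on plate 1 and 5.49% on plate 2, against 4.08% and 4.58% in mCherry- wells. The plates pointed opposite ways. The median log2 fold change of the mt- genes was -0.85 on plate 1, 0.33 on plate 2 and -0.27 in the joint fit. With wells thinned to 2000 UMIs that joint median was 0.05. The single-plate values were scaled without the filter on low counts. As a share of the summed UMIs, mt- genes took 3.523 and 5.323% in mCherry+ wells, against 5.037 and 4.806% in mCherry- wells. The mCherry- sum of plate 1 includes a well with 36.0% mt- UMIs.

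Fold changes of the nuclear members were positive for 71 of 79, without a call, with a median of 0.41 beside 0.03 for all genes. Their median share was 1.21 and 1.28% in mCherry+ wells, against 0.918 and 1.07% in mCherry- wells. Muscle-like wells were unequally divided between the gates, so values without them are also given. Their part in the difference was not tested. On plates 1 and 2 they supplied 32.5 and 47.8% of nuclear member UMIs in the mCherry+ sums, from 3 and 5 wells, against 19.8 and 19.0% in the mCherry- sums, from 3 and 2 wells. The 22 muscle markers took 5.11 and 10.3% of mCherry+ UMIs and 0.477 and 1.27% of mCherry- UMIs. Without the muscle-like wells the median of the nuclear members was 0.12, with 50 of 75 positive and none called, while 0.385% of all genes were called. The summed nuclear share with all kept wells was 1.833 and 1.799% in mCherry+ wells, against 1.293 and 1.429% in mCherry- wells. Without the muscle-like wells it was 1.48 and 1.42% in mCherry+ wells, against 1.08 and 1.2% in mCherry- wells. Other classes were also unequally divided. On plates 1 and 2 progenitor-like wells made up 14.0 and 2.44% of mCherry+ wells, against 2.65 and 0% of mCherry- wells. Neutrophil-like wells made up 10.5 and 2.44%, against 41.1 and 34.2%. The part of this mix in the values without muscle-like wells was not tested. Of the related pathways, slc25a4, an adenine nucleotide carrier gene, was called higher in mCherry+ wells (657 and 1052 UMIs, against 4 and 27, 5.29, SE 0.57), as was pgam2 (2.30, SE 0.42), a glycolysis gene on the muscle list. The antioxidant gene gsr (-1.60, SE 0.35) and slc2a3b (-2.26, SE 0.39) were called lower, and the mitochondrial ribosome had 0 of 63 genes called by edgeR, with 4 at an unadjusted p under 0.05.

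By the rule for naming genes, the largest differences over all wells were those of the complex I genes ndufa12, ndufa6 and ndufb5 on the higher side. ndufa12 was at 131 and 123 CPM in mCherry+ sums, against 67.6 and 70.1 in mCherry- sums (0.84, 95% interval -0.02 to 1.70). ndufa6 was at 138 on both plates, against 71.2 and 79.3 (0.83, interval -0.02 to 1.68), and ndufb5 at 122 and 98.3, against 64.7 and 63.0 (0.73, interval -0.13 to 1.60). On the lower side stood cox6a1 (ENSDARG00000054588), ndufaf1 and ndufa4b. The first was at 19.2 and 8.19, against 30.5 and 20.3 (-1.02, interval -1.99 to -0.04, edgeR adjusted p = 0.26). ndufaf1 differed by -0.70 (interval -1.68 to 0.28) and ndufa4b by -0.64 (interval -1.51 to 0.24), which was 0.44 with wells thinned to 2000 UMIs. The scarce cox6a1 copy and ndufaf1 were also the nuclear members with the highest ratios in neutrophil-like wells, which made up 10.5 and 2.44% of mCherry+ and 41.1 and 34.2% of mCherry- wells. The 2 comparisons share the mCherry- neutrophil-like and macrophage-like wells, and the part of the mix of classes in these gate differences was not tested.

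Within macrophage-like wells the gates were also compared. The median mt- share was 4.81 and 5.67% in mCherry+ wells, against 5.33 and 5.98% in mCherry- wells of plates 1 and 2, and the ratio averaged 0.925 ± 0.032 (SD, n = 2 plates). As a share of the summed UMIs it was 5.16 and 5.77%, against 5.14 and 5.87%. The nuclear share of the sums was 1.29 and 1.37% in mCherry+, against 1.06 and 1.35% in mCherry- wells, with a ratio of well medians of 1.25 on plate 1 and 1.03 on plate 2. Of 5115 tested genes, 2.13% were called higher and 1.64% lower, and 0 of 13 mt- and 0 of 69 nuclear members were called by edgeR, with 0 members at an unadjusted p under 0.05 by edgeR or DESeq2. The median difference in the joint fit was -0.12 for mt- and 0.11 for nuclear members, beside -0.01 for all genes. The median SE of a nuclear member was 0.34. By single plate, scaled without the filter on low counts, the medians were -0.42 and -0.02 for mt- and -0.04 and 0.06 for nuclear members. Those of all genes were -0.2 and -0.01. The log2 ratios of the summed shares on plate 1 were 0.01 for mt- and 0.29 for nuclear members, so direction there depended on the scaling.

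The named members with the largest differences in macrophage-like wells had intervals that include 0. ndufa5 of complex I was at 60.7 and 48.9 CPM in mCherry+ sums, against 22.1 and 33.8 in mCherry- sums (0.90, 95% interval -0.06 to 1.86). The synthase gene atp5mg was at 395 and 391, against 245 and 269 (0.58, interval -0.01 to 1.17), and atp5if1b at 98.6 and 101, against 62.6 and 75.6 (0.50, interval -0.26 to 1.25). On the other side, cox6b1 was at 15.2 and 20.6, against 55.2 and 31.8 (-1.12, interval -2.25 to 0.02). mt-nd4l (-1.03, interval -2.36 to 0.30) and uqcrc1 (-0.38, interval -1.11 to 0.35) completed the list. For the abundant complex IV genes the intervals were narrower, at -0.21 to 0.30 for mt-co1, -0.25 to 0.24 for mt-co2 and -0.38 to 0.23 for mt-co3. The point estimates of the same genes between neutrophil-like and macrophage-like wells lie outside these intervals. Those estimates have an SE of their own, and both fits rest on 2 plates with 1 residual degree of freedom. The sums behind this comparison held 263602 to 921109 UMIs, and the muscle markers took 0.368 and 0.892% of them in mCherry+ and 0.288 and 0.901% in mCherry- wells. Other marker lists moved with the gate. The 20 neutrophil markers took 0.213 and 0.218% of UMIs in mCherry+ sums, against 0.432 and 0.351% in mCherry- sums, with 2 of them at 0 throughout, and the 29 macrophage markers 2.73 and 2.70%, against 1.54 and 1.47%. Their part in the results was not tested.

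The macrophage-like class pools 3 clusters, which were divided differently between the gates. A cluster led by mfap4, c1ql1, slc40a1, marco and hmox1 held 12 of 24 and 46 of 75 mCherry+ wells, against 0 of 51 and 3 of 53 mCherry- wells. In its mCherry+ wells of plates 1 and 2 the nuclear share of the sums was 1.45 and 1.46% and the mt- share 5.52 and 5.8%. Its 3 mCherry- wells of plate 2 had 1.24% nuclear and 6.78% mt- UMIs. The part of this cluster in the gate values was not tested. The mCherry- wells fell mostly in a cluster led by olmf4l1 and acod1 on plate 1 (49 of 51 wells) and in a cluster with acod1 and mfap4 among its leading genes on plate 2 (50 of 53 wells). Inside the plate 1 cluster the nuclear share of the sums was 1.14% in 10 mCherry+ wells, against 1.07% in 49 mCherry- wells, and the mt- share 4.87%, against 5.17%. Inside the plate 2 cluster the nuclear share was 1.24% in 29 mCherry+ wells, against 1.35% in 50 mCherry- wells, and the mt- share 5.71%, against 5.84%. The neutrophil-like wells likewise fell mostly in 1 cluster per plate, so the comparison of neutrophil-like with macrophage-like wells set a different pair of clusters against each other on each plate.

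Of the related pathways, 1 carrier gene was called in macrophage-like wells. ucp2, a mitochondrial uncoupling protein gene, was at 615 and 662 CPM in mCherry+ sums, against 184 and 85.5 in mCherry- sums (2.29, SE 0.35, edgeR adjusted p = 0.012), the only called of 4 tested in its list. slc2a3b was lower in mCherry+ wells (-1.65, SE 0.34, adjusted p = 0.031), 1 of 7 glycolysis genes. Levels by cluster are given for both genes, and the part of the clusters in the calls was not tested. ucp2 was at 910 and 987 CPM in the mCherry+ wells of the cluster led by mfap4, c1ql1 and slc40a1. It was at 265 CPM in mCherry+, against 183 CPM in mCherry- wells of the main plate 1 cluster, and at 134 CPM in mCherry+, against 66.2 CPM in mCherry- wells of the main plate 2 cluster. slc2a3b was at 35.7 and 33.3 CPM, on 5 and 19 UMIs, in the mCherry+ wells of the cluster led by mfap4, c1ql1 and slc40a1. In the main plate 1 cluster it was at 64.0 CPM in mCherry+, against 141 CPM in mCherry- wells. In the main plate 2 cluster it was at 120 CPM in mCherry+, against 211 CPM in mCherry- wells. No gene of complex II (5 tested), of the TCA cycle and pyruvate dehydrogenase (16 tested) or of the mitochondrial ribosome (28 tested) was called by edgeR, and 0, 1 and 0 of them were at an unadjusted p under 0.05.

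**Figure D5:**
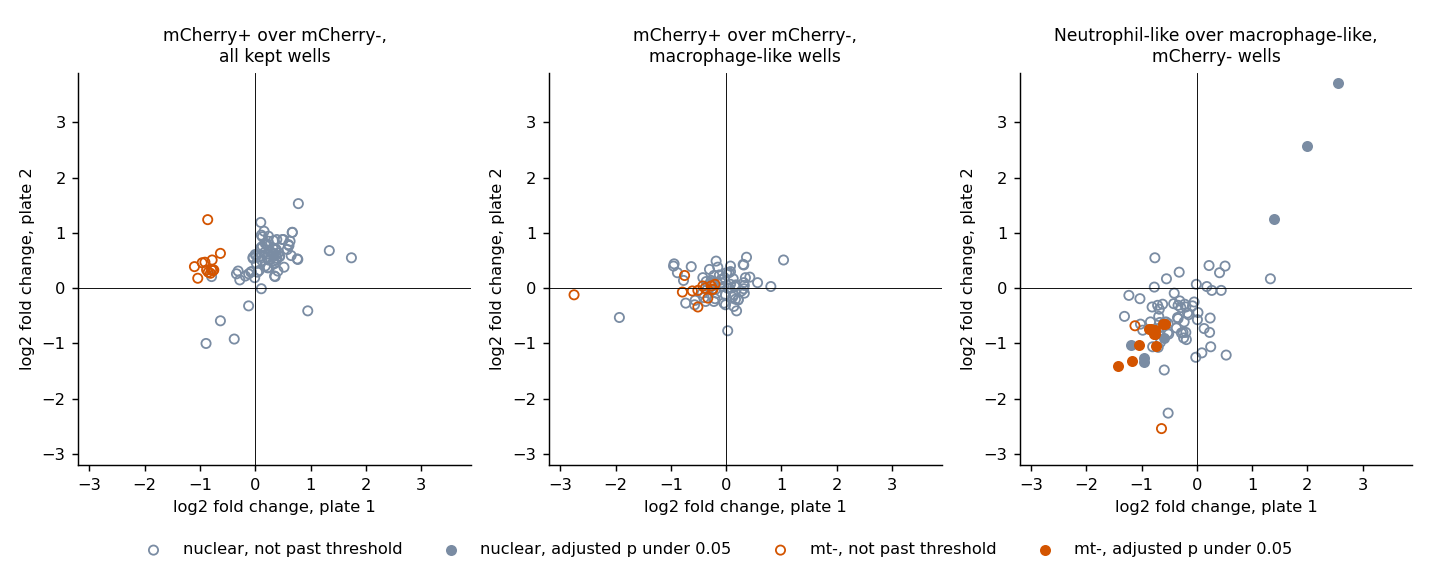
Log2 fold change of each tested respiratory chain gene on plate 1 (x axis) against plate 2 (y axis) in the 3 comparisons, orange for mt- and gray-blue for nuclear genes, filled where edgeR's adjusted p is under 0.05. The mt- points of the gate comparison over all wells fall left of 0 on plate 1 and above 0 on plate 2, whereas in the neutrophil-like comparison they are below 0 on both plates.

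How far single nuclear members depart from the rest was described by each gene's share of nuclear member UMIs in the 8 classes with at least 1000 such UMIs. Among 69 members with at least 200 UMIs, the ratio of the highest to the lowest class was under 3 for 64, with a median of 1.8. The highest or lowest class was often the erythroid-like class or the shallow unnamed cluster of 51 wells. These had only 1748 and 1943 nuclear member UMIs, so the ratios include counting error, and they were not computed without these classes. ndufa4b, whose mammalian counterpart is now placed in complex IV, varied most. It supplied 0.729% of nuclear member UMIs in neutrophil-like and 0.252% in macrophage-like wells, 0.0658% in progenitor-like wells on 6 UMIs (0.0231% without the well that held 66.7% of them), and none in the 8 erythroid-like wells, which allows a share of up to 0.172%. Its highest share, 1.39%, was in the shallow unnamed cluster of 51 wells, where 1 well held 51.9% of its UMIs and the share without it was 0.841%. uqcrb of complex III ranged up to 0.456% in mesenchyme-like wells and down to 1 UMI in that shallow cluster. cox6b1 supplied 0.797% in the unnamed cluster of 78 wells and 0.153% in muscle-like wells. Of the UMIs of cox6b1 and its paralog cox6b2, cox6b1 made up 20.2 and 23.2% in that unnamed cluster, 9.96 and 5.27% in macrophage-like and 3.43 and 6.89% in muscle-like wells. ndufs4 was highest in muscle-like wells at 0.379% and lowest in erythroid-like wells on 2 UMIs. ndufb7 reached 1.01% in mesenchyme-like wells, with 0.309% in the shallow cluster on 6 UMIs. atp5if1b ranged from 0.669% in macrophage-like to 1.96% in neutrophil-like wells. atp5mea, which with atp5meb encodes subunit e of the synthase, ranged from 0.296% in muscle-like to 0.865% in macrophage-like wells. Its part of the atp5mea and atp5meb UMIs was 14.3 and 12.3% in muscle-like wells (exact 95% intervals 10.8 to 18.5% and 9.35 to 15.8%), against 32.7 and 34% in macrophage-like wells. ndufv2 ranged from 0.244% in the unnamed cluster of 78 wells to 0.687% in erythroid-like wells, on 12 UMIs.

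The relation between both shares over the wells of a class is given as a description. Spearman's rho was -0.07 (77 wells) and 0.30 (43 wells) in the neutrophil-like class and 0.22 (75 wells) and 0.19 (128 wells) in the macrophage-like class of plates 1 and 2. On plate 1 it was 0.17 in 24 progenitor-like wells, 0.27 in 61 wells of the largest unnamed cluster and 0.61 in 33 wells of the shallow unnamed cluster, where the median well had 1367 UMIs. Wells of a class share a library, and both shares have the same denominator. In neutrophil-like wells the mt- share was lower in deeper wells, with a rho to UMIs of -0.39 and -0.25, while in macrophage-like wells the rho was -0.03 and -0.12.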

How the data were processed

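UMIs were counted in 384 wells on each of 2 plates. The deposited values are expected counts: UMIs per gene and well, which the authors corrected for collisions of their 6-base UMI and did not normalize. The submitters' processing notes name BWA, Seurat and the GRCz11 build without roles or versions. Spike-ins (1.13%) were set aside and wells with at least 500 UMIs and 200 genes kept. No column of another series was used. Names came from a table pairing Ensembl identifiers with symbols, which named 17425 of 22342 genes, and near-identical copies may split reads. Wells were clustered without the respiratory chain genes (scanpy 1.11.5, leidenalg 0.10.2, resolution 1, 2000 variable genes). A cluster was named where at least 3 markers of a type were raised and no other list had more genes among its 10 leading genes, unless it was shallow (3 times its median UMIs still under the median of its plates) with no marker of that type among those 10. This naming rule was set after the data were seen. No doublet caller was run, and the plates share well barcodes by design.

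Summed UMIs were rounded and tested with edgeR 4.0.16 in R 4.3.3 (quasi-likelihood, TMM, filterByExpr, plate as block). The labels place both gates on each plate, so the plate pairs the sums, and deviations of sums on 1 plate correlated at r = 0.12, 0.07 and 0.20 over 9904, 5115 and 4974 genes in the 3 comparisons. These fits have 1 residual degree of freedom and share spread across genes. Alternatives were DESeq2 1.42.0, other scalings, filters, depths, cluster settings, no block and single plates. The scripts were tested on simulated data. Genes were named by rule: all mt- genes, the 12 most abundant nuclear members, in each gate comparison the 3 largest differences each way with at least 50 UMIs, in the cell class comparison the called members, and the 8 widest class spreads. Members, lists and tests were chosen with earlier results of these data known. Intervals on counts cover counting error only.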

Additional observations from a re-analysis of the deposited data

Results flagged for a closer look

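The mCherry+ to mCherry- ratio of the nuclear share in summed UMIs ran opposite ways between cell classes on both plates. On the log2 scale it averaged 0.16 in macrophage-like wells (0.29 on plate 1 and 0.03 on plate 2), 0.36 in neutrophil-like wells (0.48 and 0.24) and 0.65 in the shallow unnamed cluster of 51 wells (0.72 and 0.58). It averaged -1.32 in muscle-like wells (-0.94 and -1.70) and -0.17 in the unnamed cluster of 78 wells (-0.13 and -0.22). The difference between classes was not tested, and the muscle-like values rest on 3 and 5 mCherry+ and 3 and 2 mCherry- wells.

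The 234 wells left out for low depth also carried mt- UMIs, at 5.09% of their 42356 UMIs, with 1.2% in nuclear members. Wells under 500 UMIs had median mt- shares of 4.61% on plate 1 and 5.47% on plate 2.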

How the results depend on the processing

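The gate comparisons had 0 members called under every alternative run, including the fit with no replicate block (0 in both). Between neutrophil-like and macrophage-like wells, 18 members were called, against 7 by DESeq2, 10 with no replicate block, 9 with sums scaled without the mt- genes, which were then not tested, and 7 with wells thinned to 2000 UMIs, where 44 members passed the filter. Of all tested genes, 30.6% were called in the main fit and 46.9% after thinning. For the remaining alternatives the share over all genes is not given here, so their counts show only how the calls depend on the setting. The other alternatives gave 17 to 23 calls, the highest without scaling, where the median of all genes was -0.13. The neutrophil-like to macrophage-like ratio of the mt- share (0.582) was 0.571 in wells with at least 2000 UMIs, 0.615 after thinning and 0.593 from distinct UMIs without the collision correction. The mCherry+ to mCherry- ratio of the mt- share in macrophage-like wells (0.925) was 0.993 from summed UMIs and 0.960 after thinning. By single plate the ratios ran over 0.576 to 0.587 and 0.902 to 0.948 for the mt- share, and 0.667 to 0.804 and 1.03 to 1.25 for the nuclear share. Fits on 1 plate have no residual degrees of freedom and gave values with no test. The ndufa4b difference over all wells was 0.44 after thinning, against -0.64. The causes were not tested. Depth limits scarce members: mt-nd6 had 102 UMIs in all, and 11 nuclear members had under 50.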

Other observations

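A single well of plate 1 in the mCherry- gate, in the unnamed cluster of 78 wells, had 36.0% of its 20260 UMIs in mt- genes, with 2.23% in nuclear members. It held 2.55% of all mt- UMIs, and the mt- share of the sum of that cluster, gate and plate was 8.75% with this well and 5.40% without it.

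The nuclear share of neutrophil-like wells by gate had medians of 1.16 and 0.959% in mCherry+ wells (15 and 3 wells), against 0.830 and 0.837% in mCherry- wells (62 and 40 wells) of plates 1 and 2. Progenitor-like wells of plate 1 had medians of 2.2% in 20 mCherry+ wells, against 1.67% in 4 mCherry- wells. These were not tested.

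Of the UMIs of ndufab1b and ndufab1, which encode the acyl carrier subunit of complex I, ndufab1b made up 55 and 63.4% in neutrophil-like wells, against 40 and 47.1% in macrophage-like wells of plates 1 and 2, and the exact 95% intervals overlapped on both plates (41.6 to 67.9% and 46.9 to 77.9%, against 29.2 to 51.6% and 40.2 to 54.1%). The scarce copy of cox5b (ENSDARG00000068738) stood at 55.8 and 20.3 CPM in muscle-like wells, in 3 of 6 and 4 of 7 wells, and at 2.8 or less in macrophage-like, neutrophil-like, progenitor-like and mesenchyme-like wells.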
